A study of Homo sapiens with 32 samples.

Results

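Fibronectin (FN1), transgelin (TAGLN), the transcription factor ZEB1 and the neural cell adhesion molecule (NCAM1) are 4 genes linked with mesenchymal and neural plasticity, and their counts were followed through RNA-seq of a prostate cancer cell line. The members were the rows of the deposited gene table that carry these 4 names, 4 of 57773 genes, read in all 32 libraries. The cells were LNCaP, an androgen-dependent line derived from a lymph node metastasis. The study used the parental line and LNCaP lines that stably carry a MACC, a fusion of the androgen receptor DNA binding domain with ERT2, a mutant estrogen receptor ligand binding domain that enters the nucleus once tamoxifen binds it. The neutral MACC ends in 3X FLAG only, the repressive MACC adds KRAB, which recruits silencing machinery, and the activating MACC adds VP64, a viral activator, so that the constructs act on elements that hold the androgen response element (ARE). The MACC lines were made by lentiviral infection from a PGK promoter vector and kept under blasticidin as selected populations, a selection named for the MACC lines only. Each of the 4 lines was given 2.5 µM tamoxifen or its vehicle, ethanol, for 48 h, with 4 biological replicates per condition. The design thus asks whether steering ARE elements up or down moves these genes, with the parental line for the drug and the neutral line for the drug and the construct together.

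Epithelial cells that lose their identity can take on mesenchymal or neural traits, and prostate cancers under androgen receptor blockade are known for such changes. FN1 is a secreted glycoprotein of the extracellular matrix that binds integrins and is a common marker of the epithelial-mesenchymal transition (EMT). TAGLN is a calponin family protein that binds actin filaments and is typical of smooth muscle and of activated fibroblasts. ZEB1 is a zinc finger factor that binds E-box sequences and represses epithelial genes, E-cadherin among them. NCAM1, also known as CD56, is an immunoglobulin family adhesion molecule of neurons and is used as a marker of neuroendocrine tumours.

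Library totals ran from 454982 to 1164808 counts with a median of 669922, so that each member rested on few counts. FN1 had 6 to 49 counts per library, TAGLN 3 to 19, ZEB1 3 to 22 and NCAM1 0 to 20. All 4 members were among the 3985 genes that passed the expression filter. ESR1, which supplies the ERT2 sequence, had 0 to 2 counts in the parental libraries and 66 to 159 in the MACC libraries, as the line labels require. The 12 luminal prostate markers all had counts, whereas the 9 fibroblast markers summed to 0 to 3 counts per library and 6 of them, including DCN, LUM and PDGFRA, were at 0 in all 32 libraries. In bulk RNA, fewer cells of a type and less RNA per cell cannot be told apart.

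The strand on which reads were counted bears on what each value means. GAPDH, one of the most abundant human transcripts, had a mean of 65.6 counts per library, while the feature annotated opposite it had 17178. Likewise, MT-ND6, the mitochondrial protein gene that lies alone on its strand, averaged 4468 counts, whereas the median of the other 12 was 156. The larger counts thus stood on the strand opposite GAPDH and opposite these 12 genes. Genes with exonic overlap across strands took 80.9% of all counts on annotated genes. The library kit keeps strand, and the strand setting of the counting is not given in the sources used here. A count below is therefore the count deposited under the gene's name. It may come largely from reads of the other strand, and its share from the gene's own transcript could not be separated. Members are given with every feature annotated across from them for this reason.

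FN1 lies on chromosome 2 at chr2:216225163-216300796 of GRCh37, on the minus strand, with 17216 exonic bases that no other annotated feature shares, and it is the member whose counts have no annotated partner. Its proximal promoter is shown because FN1 was called under the activating MACC and the construct binds the ARE. The 250 bases upstream of its RefSeq start, placed on GRCh37 at chr2:216300792-216301041 by exact match and read on the minus strand, are printed with the cAMP response element (CRE) TGACGTCA and the TATA-like TATAA in capitals.
FN1 promoter: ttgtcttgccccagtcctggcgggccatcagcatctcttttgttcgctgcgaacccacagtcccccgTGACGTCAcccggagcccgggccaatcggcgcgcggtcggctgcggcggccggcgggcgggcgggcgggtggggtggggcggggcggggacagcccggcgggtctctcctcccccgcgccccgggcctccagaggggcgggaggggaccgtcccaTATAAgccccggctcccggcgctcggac
The CRE begins 183 bases and the TATA-like match 28 bases upstream of the start. Among 35116 promoter windows of the same length, 1.65% hold TGACGTCA and 18.9% hold TATAA on either strand. The GC box GGGCGG occurred at 6 places in the FN1 window, some of them overlapping neighbouring repeats, and occurs in 42.6% of all windows. Neither the ARE half-site AGAACA, present in 12.4% of windows, nor the full palindromic ARE, made of that half-site, 3 free bases and its reverse complement and present in 0.00285%, occurs in the FN1 window on either strand. The ZEB1-type E-box CACCTG, found in 17.5% of windows, was also not present in these letters. Motif matches describe the printed window only.

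**Figure D1:**
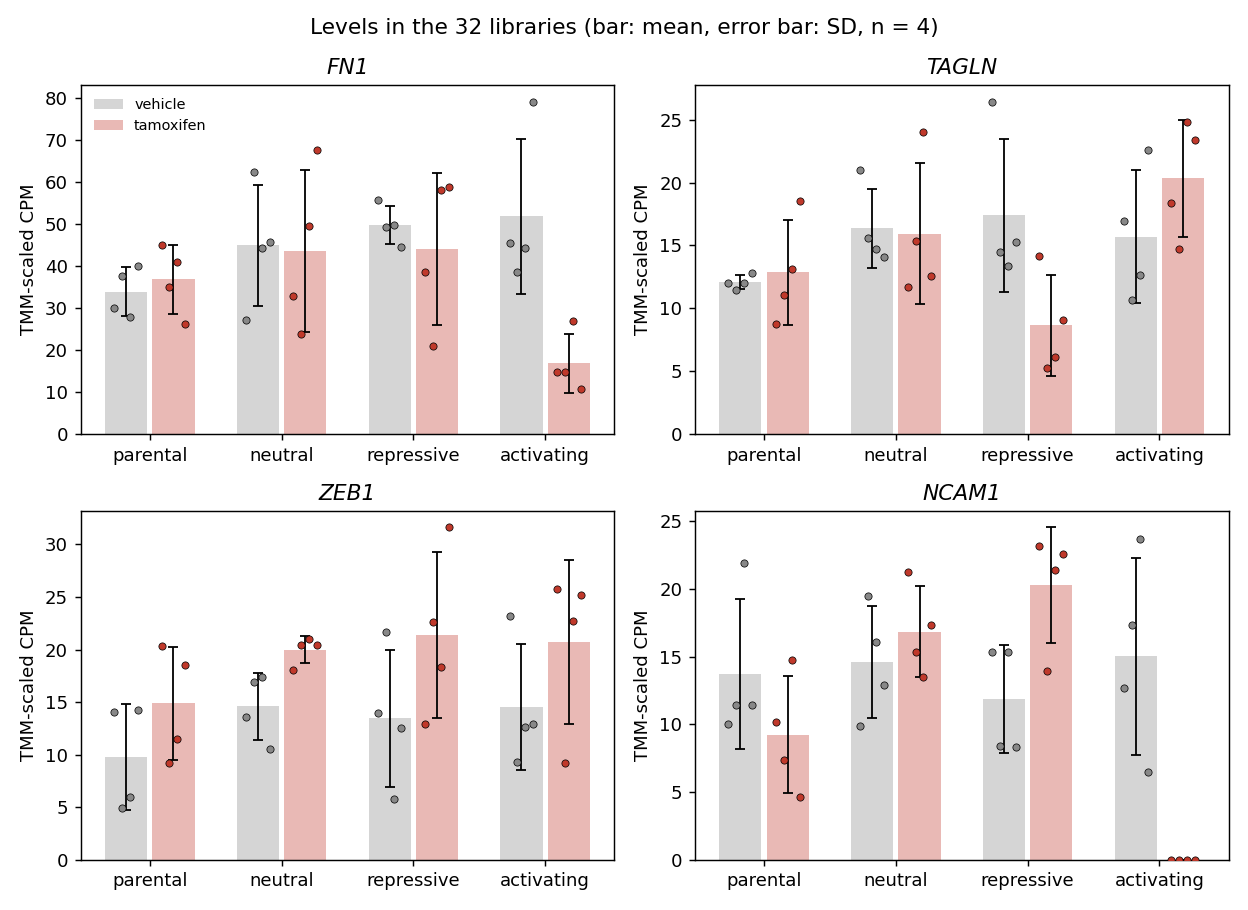
TMM-scaled CPM (y axis) of FN1, TAGLN, ZEB1 and NCAM1 in the 4 lines (x axis) under vehicle (grey) and tamoxifen (red), with a point per library, bars at the mean and error bars for the SD of 4 libraries. FN1 and NCAM1 are lowest in the activating line under tamoxifen, where the 4 NCAM1 points lie at 0.

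FN1 fell in the activating line under tamoxifen. Its counts were 43, 29, 28 and 49 in vehicle replicates 1 to 4 and 8, 8, 13 and 6 in the tamoxifen replicates. Each tamoxifen library lay under each vehicle library. In CPM, which are counts scaled to library size with the trimmed mean of M-values (TMM), FN1 went from 51.9 ± 18.4 to 16.8 ± 6.99 (SD, n = 4 each), or -1.50 on the log2 scale with a standard error of 0.31 (adjusted p = 0.000402 over 3985 genes, from the quasi-likelihood test of edgeR corrected by the Benjamini-Hochberg method). Of the 3985 genes, 44.8% were called in this comparison and 22.8% were called as lower, so that a call in this line is common. With scaling by library totals the shares were 53.4% and 42.3%. Vehicle replicate 4, at 79.2 CPM, stood above the other vehicle libraries at 38.6 to 45.4, and without any 1 of the 8 libraries the log2 fold change ranged from -1.81 to -1.24 and remained past the threshold.

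FN1 did not pass the test in the other lines. The parental line had 15, 23, 14 and 28 counts under vehicle and 31, 19, 25 and 17 under tamoxifen, or 33.9 ± 5.79 and 36.8 ± 8.15 CPM. The neutral line had 22, 48, 33 and 39 counts under vehicle and 31, 14, 33 and 43 under tamoxifen, or 44.9 ± 14.4 and 43.5 ± 19.3 CPM. The repressive line had 40, 41, 26 and 32 counts under vehicle and 30, 12, 38 and 39 under tamoxifen, or 49.8 ± 4.57 and 44.1 ± 18.1 CPM. In each of these lines the vehicle and tamoxifen ranges overlapped, with log2 fold changes of 0.07, -0.07 and -0.21 (edgeR adjusted p = 0.978, 0.944 and 0.579). The spread under tamoxifen was wide in the neutral and repressive lines, where replicate 2 was the lowest library of its group.

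The FN1 response of the activating line differed from that of the neutral line by -1.46 on the log2 scale (standard error 0.48, edgeR interaction test over 16 libraries, adjusted p = 0.0219). In this comparison 33.4% of tested genes were called, 17.3% as lower. The call rested on activating tamoxifen replicate 4, the library with 6 counts, since without it the difference was -1.26 (edgeR adjusted p = 0.0608). Against the same neutral libraries, the repressive line differed by -0.15 (edgeR adjusted p = 0.946).

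NCAM1 had no count in any of the 4 activating libraries under tamoxifen. Under vehicle the same line had 12, 13, 15 and 4 counts, or 15.0 ± 7.28 CPM (SD, n = 4). These were the only libraries of the 32 without an NCAM1 count, and at the vehicle level each would have held 7.21 to 8.28 counts. Against a floor of 3 counts over the tamoxifen group, equal to 1.41 CPM after TMM scaling, and the pooled vehicle level of 14.9 CPM, NCAM1 was at least 10.6-fold lower, a bound that ranged from 7.82 to 12.2 when 1 library was left out. Floors cover counting error only. The change was called (edgeR adjusted p = 6.54e-05), and its fitted log2 value of -6.21 depends on the prior count of the fit and measures no size.

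In the other lines NCAM1 was counted in every library. The repressive line had 11, 7, 8 and 6 counts under vehicle and 18, 8, 14 and 15 under tamoxifen, or 11.8 ± 4.0 and 20.3 ± 4.29 CPM. In this line 3 of the 4 tamoxifen libraries lay above all vehicle libraries and replicate 2 did not, and the log2 fold change of 0.77 (standard error 0.33) did not pass the threshold (edgeR adjusted p = 0.111). The neutral line had 8, 15, 12 and 11 counts under vehicle and 20, 9, 9 and 11 under tamoxifen, or 14.6 ± 4.14 and 16.9 ± 3.33 CPM. The parental line had 5, 7, 11 and 8 counts under vehicle and 7, 4, 9 and 3 under tamoxifen, or 13.7 ± 5.53 and 9.23 ± 4.32 CPM. The ranges overlapped in both lines, with log2 fold changes of 0.23 and -0.58 (edgeR adjusted p = 0.774 and 0.770).

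The NCAM1 response of the activating line differed from that of the neutral line (edgeR interaction test, adjusted p = 2.91e-05), again with a fitted size that depends on the prior count. That of the repressive line did not (0.54, standard error 0.45, adjusted p = 0.676). NCAM1 lies on chromosome 11 at chr11:112831997-113149158 on the plus strand, with 12693 exonic bases. Of these, 202 are shared with RP11-629G13.1, 613 with NCAM1-AS1 and 187 with RP11-839D17.3, all on the opposite strand. Over 32 libraries these features had 4, 0 and 1 counts in all, against 280 for NCAM1. None of them had a count in the activating line.

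**Figure D2:**
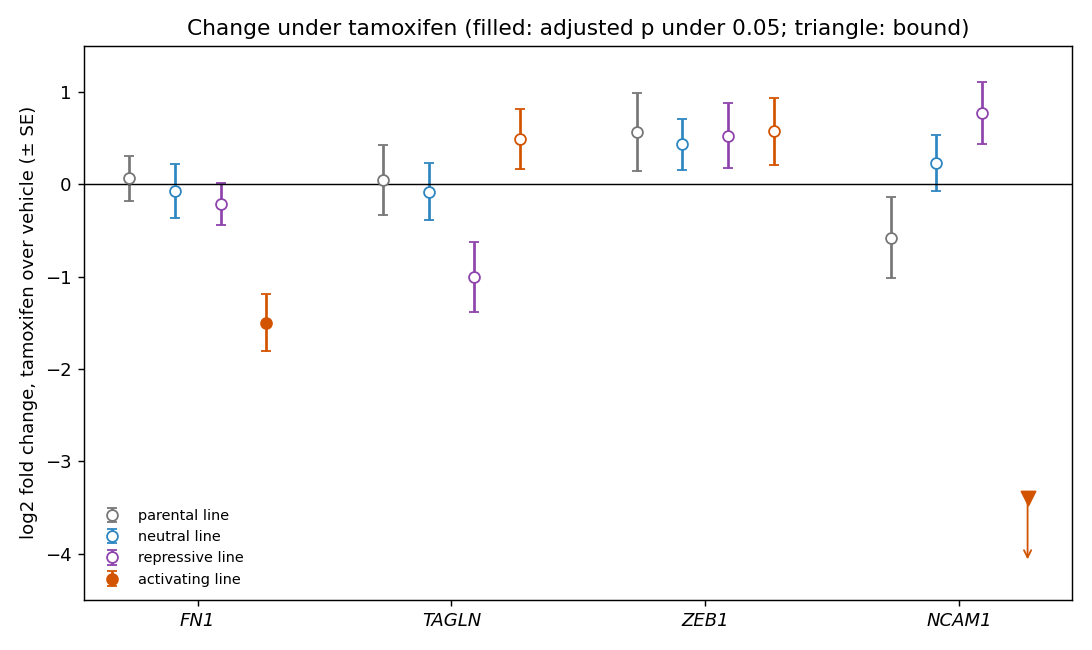
Log2 fold change of tamoxifen over vehicle (y axis) with its standard error for each member (x axis) in each of the 4 lines (colours), with filled circles for an adjusted p under 0.05 and a triangle with an arrow for the bound of NCAM1, which had no count under tamoxifen in the activating line. The ZEB1 points lie between 0.44 and 0.57 in all lines and none is filled.

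ZEB1 was higher on average under tamoxifen in each of the 4 lines, and no line passed the test. The parental line had 7, 3, 3 and 10 counts under vehicle and 14, 5, 7 and 12 under tamoxifen, or 9.80 ± 5.05 and 14.9 ± 5.37 CPM. The neutral line had 11, 13, 13 and 9 counts under vehicle and 17, 12, 14 and 13 under tamoxifen, or 14.6 ± 3.19 and 20 ± 1.31 CPM. In CPM the neutral tamoxifen libraries, at 18.1 to 21.0, all lay above the vehicle libraries, at 10.6 to 17.4, whereas the parental groups overlapped.

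The MACC lines with an effector domain gave similar ZEB1 values. The repressive line had 10, 18, 3 and 9 counts under vehicle and 10, 13, 12 and 21 under tamoxifen, or 13.5 ± 6.54 and 21.4 ± 7.92 CPM. The activating line had 22, 7, 8 and 8 counts under vehicle and 14, 5, 11 and 14 under tamoxifen, or 14.5 ± 6.03 and 20.7 ± 7.79 CPM. The groups overlapped in both lines. In the order parental, neutral, repressive and activating, the log2 fold changes were 0.57, 0.44, 0.53 and 0.57, with standard errors of 0.42, 0.28, 0.35 and 0.36 (edgeR adjusted p = 0.760, 0.468, 0.335 and 0.211).

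A fit with tamoxifen as 1 term beside the line over all 32 libraries, chosen after seeing these values, gave ZEB1 a log2 fold change of 0.52 (standard error 0.18, edgeR adjusted p = 0.0302), in a fit that called 22.3% of genes. This call did not hold when any 1 of the 4 lines was left out (adjusted p = 0.0510 to 0.0831), in 3 of the 32 fits without 1 library, or with scaling by library totals (0.34, adjusted p = 0.176). Over the parental and neutral lines alone the value was 0.50 (standard error 0.24, edgeR adjusted p = 0.293), where 1.2% of genes were called. The interactions of ZEB1 with the construct were small and uncertain, 0.11 for the activating and 0.09 for the repressive line against the neutral line (standard errors 0.46 and 0.46, edgeR adjusted p = 0.887 and 0.973). ZEB1 lies on chromosome 10 at chr10:31607424-31818742 on the plus strand, and 396 of its 8650 exonic bases are shared with ZEB1-AS1 on the opposite strand, which had 1 count in all 32 libraries.

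TAGLN had its lowest level in the repressive line under tamoxifen, without passing the test. That line had 19, 12, 7 and 11 counts under vehicle and 11, 3, 4 and 6 under tamoxifen, or 17.4 ± 6.08 and 8.63 ± 4.03 CPM. In CPM, 3 of the 4 tamoxifen libraries lay under all vehicle libraries, replicate 1 at 14.2 did not, and vehicle replicate 1 at 26.4 stood above the other vehicle libraries at 13.4 to 15.3. The log2 fold change was -1.0 (standard error 0.38, edgeR adjusted p = 0.0698), beside 17.8% of all tested genes called in this line. It crossed the threshold in a fit over all 32 libraries (-1.02, edgeR adjusted p = 0.0352), with scaling by library totals (-1.13, adjusted p = 0.0432) and without tamoxifen replicate 1 (-1.37, adjusted p = 0.0259), but not with DESeq2's test (-1.02, adjusted p = 0.232). The difference from the response of the neutral line was -0.93 (standard error 0.49, edgeR adjusted p = 0.392), in a comparison with 3.39% of genes called.

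TAGLN did not pass the test in the remaining lines. The parental line had 6, 7, 6 and 9 counts under vehicle and 6, 6, 8 and 12 under tamoxifen, or 12.1 ± 0.571 and 12.9 ± 4.19 CPM. The neutral line had 17, 12, 11 and 12 counts under vehicle and 11, 9, 16 and 8 under tamoxifen, or 16.4 ± 3.14 and 15.9 ± 5.61 CPM. The activating line had 16, 8, 8 and 14 counts under vehicle and 10, 8, 12 and 13 under tamoxifen, or 15.7 ± 5.30 and 20.3 ± 4.66 CPM. All these ranges overlapped, and the log2 fold changes were 0.05, -0.08 and 0.49 (edgeR adjusted p = 0.987, 0.941 and 0.237). The activating response differed from the neutral one by 0.54 (standard error 0.44, edgeR adjusted p = 0.381).

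TAGLN, on chromosome 11 at chr11:117070086-117078180 on the plus strand, is the member with the largest annotated overlap. Of its 6550 exonic bases, 2233 (34.1%) are shared with PCSK7 on the opposite strand, which encodes a proprotein convertase and had a mean of 16.4 counts per library against 9.94 for TAGLN. A feature of unsettled type on the same strand shares 2498 bases and was not analysed here. PCSK7 had vehicle counts of 15, 17, 10 and 17 and tamoxifen counts of 16, 24, 12 and 18 with the activating MACC, and rose by 0.82 on the log2 scale (standard error 0.28, edgeR adjusted p = 0.0205), although the CPM ranges overlapped. In the repressive line PCSK7 had 15, 21, 9 and 15 counts under vehicle and 16, 7, 12 and 14 under tamoxifen, a log2 fold change of -0.27 (edgeR adjusted p = 0.573). The part of PCSK7 reads in the TAGLN counts was not tested.

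**Figure D3:**
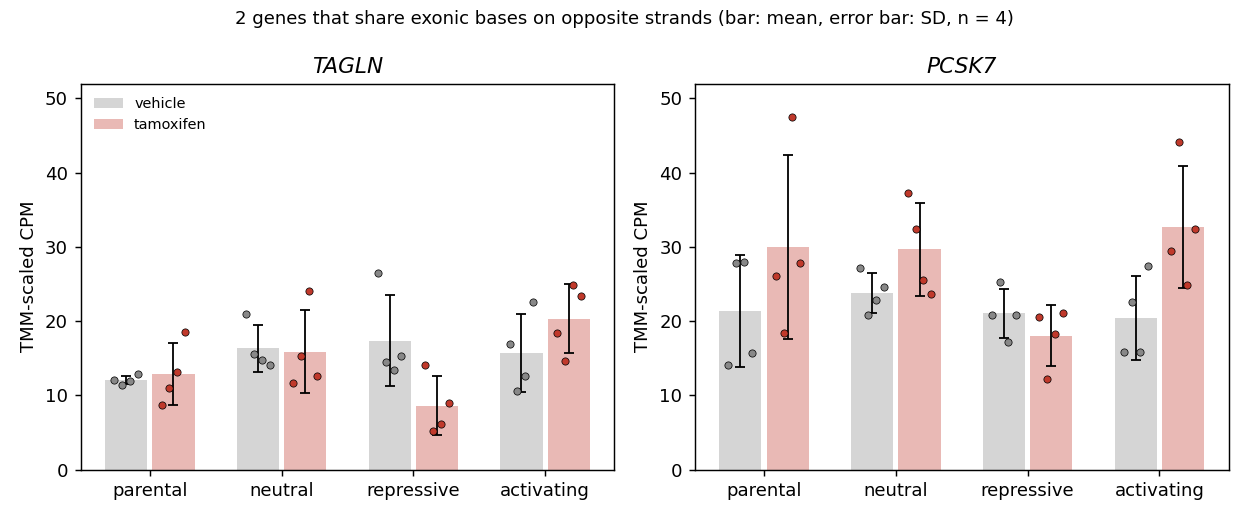
TMM-scaled CPM (y axis) of TAGLN and of PCSK7, which share exonic bases on opposite strands, by line (x axis) under vehicle (grey) and tamoxifen (red), with a point per library, bars at the mean and error bars for the SD of 4 libraries. In the activating line both means are higher under tamoxifen, 20.3 against 15.7 for TAGLN and 32.7 against 20.4 for PCSK7.

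Counting over the members, tamoxifen called 2 of 4 in the activating line, FN1 and NCAM1, where 44.8% of all tested genes were called. It called 0 of 4 in the repressive line (17.8% of all genes), 0 of 4 in the neutral line (4.72%) and 0 of 4 in the parental line, where 0% of all genes were called by edgeR and 0 by DESeq2 although 306 genes had an unadjusted p under 0.05. The share in the activating line is close to the background and is no result about these genes. In size, FN1 fell by 1.5 on the log2 scale and NCAM1 had no count left, while the median over all tested genes was -0.09. With library totals in place of TMM scaling this median moved to -0.54, and relative to the median FN1 stood at -1.41 under both scalings, TAGLN at 0.58 under both and ZEB1 at 0.67 and 0.66.

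Carrying a MACC without tamoxifen called no member. Against the parental vehicle libraries, which all 3 comparisons share, FN1 was higher by 0.35 in the neutral, 0.54 in the repressive and 0.58 in the activating line (edgeR adjusted p = 0.461, 0.103 and 0.172). In these comparisons 9.74%, 10.8% and 8.08% of all tested genes were called. The repressive FN1 libraries, at 44.5 to 55.7 CPM, all lay above the parental ones at 27.9 to 39.9. TAGLN was also higher in the 3 lines, by 0.40, 0.53 and 0.37 (edgeR adjusted p = 0.548, 0.372 and 0.581), with the neutral and repressive libraries all above the parental libraries. ZEB1 differed by 0.51, 0.51 and 0.60 (edgeR adjusted p = 0.506, 0.532 and 0.451) and NCAM1 by 0.07, -0.22 and 0.15 (edgeR adjusted p = 0.937, 0.805 and 0.870), with overlapping ranges throughout.

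Ordered by mean CPM over the 8 groups, FN1 ran from 51.9 in the activating vehicle group to 16.8 in the activating tamoxifen group, and only the lowest group was separate from its neighbour in that order, the parental vehicle group. NCAM1 ran from 20.3 in the repressive tamoxifen group to 0, again with only the last step separate. For TAGLN, from 20.3 in the activating tamoxifen to 8.63 in the repressive tamoxifen group, all neighbouring groups overlapped. ZEB1 ran from 21.4 to 9.80, with all neighbours overlapping. Its 4 highest means were the 4 tamoxifen groups, but with library totals the parental tamoxifen mean (15.4) lay level with the activating vehicle mean (15.4). Scaled per kilobase of exon, and with the limit on strand above, the parental vehicle group had 1.97 ± 0.336 CPM per kb for FN1, 1.84 ± 0.0872 for TAGLN, 1.13 ± 0.584 for ZEB1 and 1.08 ± 0.435 for NCAM1 (SD, n = 4). In the activating tamoxifen group the order was 3.1 ± 0.712 for TAGLN, 2.40 ± 0.901 for ZEB1, 0.974 ± 0.406 for FN1 and 0 for NCAM1. The length used was that of all annotated exons of a gene merged, 6550 bases for TAGLN and 17216 for FN1, not that of a transcript. The order between genes therefore depends on the annotation.

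Matrix genes moved in both directions in the activating line. Of 40 genes for fibronectin, other matrix proteins and their receptors, 5 were tested, and in the activating line 2 rose, 2 fell and 1 was not called (median log2 fold change 0.28, against -0.09 over all tested genes, of which 44.8% were called). COL6A2 and COL6A1, which encode chains of collagen VI, rose by 3.85 and 2.41 on the log2 scale (standard errors 0.24 and 0.20, edgeR adjusted p = 3.18e-12 and 6.38e-10). COL6A2 went from 5 to 10 counts under vehicle to 48 to 78 under tamoxifen, and COL6A1 from 11 to 26 to 53 to 67. THBS1, the matrix glycoprotein thrombospondin, went from 63 to 101 counts to 4 to 17 and so fell by 2.44 in log2 units (standard error 0.27, edgeR adjusted p = 1.85e-07). In the repressive line, where 17.8% of all tested genes were called, THBS1 was the only one of the 5 to be called. It rose by 0.78 (standard error 0.13, edgeR adjusted p = 3.21e-05), from 42 to 95 counts to 98 to 147. This response also differed from the neutral one (0.69, edgeR adjusted p = 0.0202). The 2 genes that rose and the 2 that fell in the activating line were also called against the neutral response by edgeR. In that comparison 33.4% of all tested genes were called. FN1 and both collagen genes share no exon with a feature on the opposite strand, while THBS1 overlaps FSIP1 and THBS1-AS1. The limit on strand above holds for the counts of each, with or without such a feature.

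Of 34 genes for transgelin and the actin cytoskeleton, 10 were tested. In the activating line 4 rose, 2 fell and 4, TAGLN among them, were not called, with a median of 0.44, beside 44.8% of all tested genes called. CALD1, which encodes the actin-binding caldesmon, rose by 1.32 and the non-muscle myosin heavy chain gene MYH9 by 1.03 (standard errors 0.19 and 0.17, edgeR adjusted p = 4.95e-06 and 3.49e-05). ACTB, which encodes beta actin, rose from 46.9 ± 10.4 to 95.0 ± 15.4 CPM (SD, n = 4 each, edgeR adjusted p = 2.20e-05). These 3 genes share no exon with an opposite feature, but the limit on strand above holds for their counts too. The fourth was FLNA, which encodes the actin cross-linker filamin A (0.93, edgeR adjusted p = 0.0109), named after its value was seen and not called against the neutral response (edgeR adjusted p = 0.111). FLNA overlaps a feature with no gene symbol on the opposite strand. MYH11, the smooth muscle myosin heavy chain gene, fell by 1.82 (standard error 0.27, edgeR adjusted p = 7.03e-06) and MYL6, a myosin light chain gene, by 0.41 (standard error 0.09, adjusted p = 0.00104). MYH11 overlaps NDE1 and MYL6 overlaps SMARCC2 on the opposite strand. MYH11 rose in the repressive line by 0.57 (standard error 0.20, edgeR adjusted p = 0.0453), the 1 call of 10 there, beside 17.8% of all tested genes. It was not called against the neutral response (0.78, edgeR adjusted p = 0.131). Of the 7 smooth muscle markers, TAGLN not among them, MYH11 and SMTN were tested. SMTN, which encodes smoothelin and was named after its value was seen, moved the other way from MYH11 in the activating line, from 38.2 ± 7.83 to 95.3 ± 4.93 CPM (log2 fold change 1.42, edgeR adjusted p = 1.16e-06). SMTN also overlaps a feature with no gene symbol on the opposite strand. The 7 markers summed to 38 to 94 counts per library, and CNN1 and DES were at 0 in all 32 libraries.

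Among 22 genes for EMT transcription factors and the TGF-beta pathway that drives them, 3 were tested, namely ZEB1, SNAI3 and TGFB1. TGFB1, which encodes the ligand and overlaps HNRNPUL1 on the opposite strand, fell in the activating line by 1.01 on the log2 scale (standard error 0.34, edgeR adjusted p = 0.0208), from 12 to 27 counts to 4 to 7, and was named after its value was seen. Its response was not called against that of the neutral line (-0.83, edgeR adjusted p = 0.153), where 0 of the 3 and 33.4% of all tested genes were called. SNAI3, which overlaps SNAI3-AS1 on the opposite strand, differed by -0.42 in the activating line (edgeR adjusted p = 0.401). The median of the 3 was -0.42.

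Of 32 epithelial junction genes and genes that ZEB1 represses, 9 were tested, and in the activating line 3 rose, 0 fell and 6 were not called (median 0.24), beside 44.8% of all tested genes called. GRHL2, a transcription factor of epithelial identity, went from 8 to 27 counts to 39 to 74 and rose by 2.74 (standard error 0.26, edgeR adjusted p = 6.57e-09). It overlaps a feature with no gene symbol on the opposite strand. OCLN, which encodes the junction protein occludin, rose by 0.99 (edgeR adjusted p = 0.0490) and was named after its value was seen. Against the neutral response, where 33.4% of all tested genes were called, 2 of the 9 were called as higher, GRHL2 among them (1.9, edgeR adjusted p = 0.00411). ESRP2, an epithelial splicing regulator named after its value was seen, was called as lower (-1.30, edgeR adjusted p = 0.0117) and overlaps NFATC3 on the opposite strand. OCLN was not called against the neutral response (edgeR adjusted p = 0.266). In the repressive, neutral and parental lines none of the 9 was called by edgeR. There, 17.8%, 4.72% and 0% of all tested genes were called.

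NCAM1 had few relatives to compare with. Of 17 neural adhesion and cadherin switch genes, 7 had a count in any library and 3 were tested, NCAM1, NCAM2 and NRP1. NCAM2, the closest relative of NCAM1, had 6 to 9 vehicle counts and 1 to 6 tamoxifen counts in the activating line, and its log2 difference of -0.65 did not pass (standard error 0.50, edgeR adjusted p = 0.308). NRP1, a receptor for semaphorins and VEGF, differed by 0.33 (edgeR adjusted p = 0.529) and overlaps a feature with no gene symbol on the opposite strand. Of 38 neuroendocrine genes, 26 had a count and 0 passed the expression filter, so none was tested in the filtered fit. With the low library totals and the limit on strand, this does not show that these genes are silent. In the parental and neutral lines no gene of these 6 lists was called under tamoxifen by edgeR. Of all tested genes, 0% and 4.72% were called there.

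**Figure D4:**
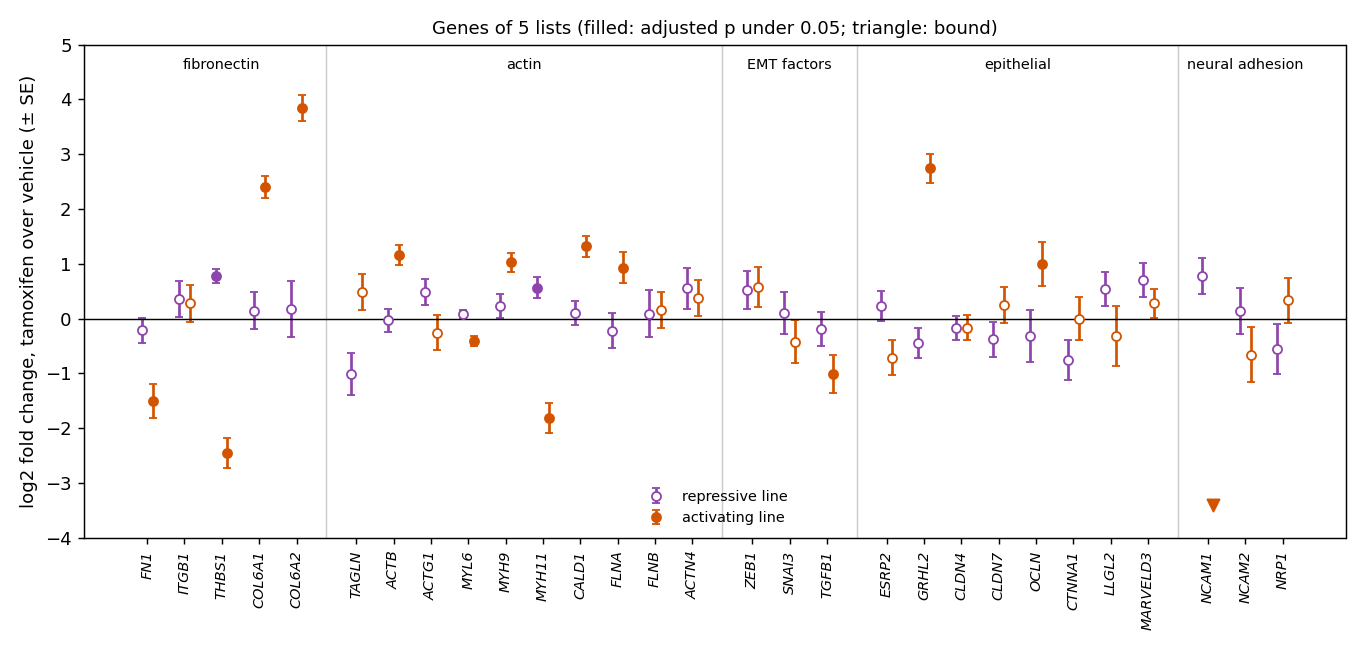
Log2 fold change of tamoxifen over vehicle (y axis) with its standard error for tested genes of 5 lists (x axis, grouped by list, with 1 epithelial gene not shown) in the repressive (purple) and activating (orange) lines, with filled circles for an adjusted p under 0.05 and a triangle for the NCAM1 bound. In the activating line COL6A2 stands at 3.85 and GRHL2 at 2.74, while THBS1, MYH11 and FN1 lie at -2.44, -1.82 and -1.50.

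Across the 8 group means, the genes most like each member by Pearson's r among 3984 other tested genes are given as a description, since groups of the same line share their cells and the means carry counting noise. For FN1 they were MAFK (0.992), GNB3 (0.988) and TMED8 (0.985). For NCAM1 they were GET4 (0.996), RP11-17J14.2 (0.994) and SPHK2 (0.990). NCAM1 was at 0 in the activating tamoxifen group and at 9.23 to 20.3 CPM in the other groups. Its r values can therefore rest largely on that group, and r without it was not tested. For ZEB1 they were ZNF503-AS2 (0.966), MRFAP1 (0.962) and SAMD14 (0.961), and for TAGLN METTL12 (0.944), PACSIN1 (0.931) and AC084219.4 (0.929). Between members, r was 0.891 for FN1 and NCAM1, with both lowest in the activating tamoxifen group, and -0.61 for TAGLN and NCAM1.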

How the data were processed

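RNA-seq of 32 LNCaP libraries (8 groups of 4 biological replicates, assigned from the labels) was analysed. The authors ran nf-core RNA-seq on GRCh37 with Salmon 1.9.0 and deposited estimated counts per gene, not normalized; the annotation release and strand setting are not given in the sources used here. Estimated counts were rounded. edgeR 4.0.16 in R 4.3.3 (filterByExpr, TMM, robust dispersions, glmQLFit and glmQLFTest, Benjamini-Hochberg at 0.05 over 3985 genes) compared tamoxifen with vehicle and each line with the parental line over 8 libraries, and responses over 16 as interactions. Standard errors were taken from each log2 value and its F statistic. Alternatives were DESeq2 1.42.0, its size factors, library totals, no filter, 1 fit over 32 libraries, a replicate block and each library left out. On simulated counts edgeR called 61 of 100 genes changed by 1 on the log2 scale and 93 of 100 changed by 2 (3985 genes). The changed genes were drawn at random from all tested genes, with as many up as down. They were a far smaller share than was called in the activating line. These rates need not hold for genes with counts as low as those of the members.

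Features come from GENCODE lifted to GRCh37 and the promoter from RefSeq, whose table held FN1 and ZEB1. The members and lists were chosen with earlier results of these data known. Named list genes were the called genes with the largest changes, up to 3 each way, with a mean of at least 20 counts. No replicate pair of the 48 differed by less than counting noise (chi-square per gene at least 1.46). The median was 2.47 and the largest value 32.1, so at least 1 pair differed far more than most. The values of 1 tested list gene are not reported here, although counts include it.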

Additional observations from a re-analysis of the deposited data

Results flagged for a closer look

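In 3 of 31 sets of 4 libraries of a member and group, 1 library lay apart from the others by Dixon's criterion, which chance alone exceeds in about 1 set in 20. FN1 was at 79.2 CPM in activating vehicle replicate 4, with the others at 38.6 to 45.4. TAGLN was at 26.4 CPM in repressive vehicle replicate 1, with the others at 13.4 to 15.3. NCAM1 was at 21.9 CPM in parental vehicle replicate 3, with the others at 10.0 to 11.5.

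The tamoxifen response differed between the activating and neutral lines by edgeR's interaction test for FN1, with a difference of -1.46 on the log2 scale, and for NCAM1, with a fitted difference of -6.63 that depends on the prior count because 4 libraries had no count.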

How the results depend on the processing

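Of 554 member values under alternatives, 527 kept their direction and side of the threshold, 4 crossed into a call, 1 call was lost and 22 uncalled values changed sign; 14 had no adjusted p from DESeq2. FN1 and NCAM1 in the activating line were called under all 14 alternatives, FN1 from -1.95 to -1.24. TAGLN in the repressive line was called with library totals (-1.13), 1 fit over 32 libraries (-1.02) and the replicate block (-1.03). Libraries of the same replicate number were weakly correlated (r from -0.0264 to 0.247, 8 of 16 pairs over 0.1). Of 16 tamoxifen libraries, 9 correlated best with the vehicle library of their own number, among 4 candidates each. Replicate numbers may thus pair the libraries in part, and the main tests did not use them. The block changed no other member call. The ZEB1 interaction in the activating line became -0.16 with library totals.

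With 1 library left out, values ranged from -0.0486 to 0.20 for FN1 and -0.19 to 0.21 for TAGLN in the parental line, from -0.34 to 0.16 and -0.34 to 0.11 in the neutral line, and from -1.37 to -0.76 for TAGLN in the repressive line. Ranges for NCAM1 against the parental line were -0.0946 to 0.38 (neutral), -0.37 to 0.0892 (repressive) and -0.10 to 0.46 (activating). Interactions ranged from -1.77 to -1.16 (FN1) and -0.0409 to 0.52 (ZEB1) in the activating line, and from -0.34 to 0.10 and -0.17 to 0.43 in the repressive line.

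Genes called by edgeR in the parental line went from 0 to 1 with library totals, 24 without a filter and 32 with the replicate block. The replicate block also gave 208 (neutral), 686 (repressive) and 90 (activating) genes against parental vehicle cells, instead of 388, 432 and 322, and 205 for the repressive interaction (135, or 58 with library totals). DESeq2 called 451 of 709 in the repressive line and 273 of 432 in its vehicle comparison, and 1 fit over 32 libraries called 542 in the activating vehicle comparison. Without 1 library, counts were 105 to 415 in the neutral line under tamoxifen (188 with all), lowest without tamoxifen replicate 3 and highest without replicate 4, 202 to 517, 251 to 480 and 120 to 315 in the vehicle comparisons, and 0 to 3 in the parental line. With library totals the share of calls that were higher fell from 49% to 20.8% in the activating, 43.9% to 20.3% in the repressive and 55.3% to 16.5% in the neutral line, and from 48.1% to 28.1% for the activating interaction. The causes were not tested. Median counts per library were 28.5 for FN1, 9.5 for TAGLN, 11 for ZEB1 and 8.5 for NCAM1.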

Other observations

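Among 5 basal epithelial markers, KRT5, the keratin of prostate basal cells, had 38 to 54 counts in the activating tamoxifen libraries and none in the vehicle libraries of that line (edgeR adjusted p = 3.66e-12), and no count in the other lines. The other basal markers, TP63 included, stayed at or near 0, and TP63 was at 0 in all 32 libraries. The 12 luminal markers summed to 704 to 1493 counts in the activating line under vehicle and 4225 to 6010 under tamoxifen, where 3 of the 9 tested rose and 3 fell, beside 44.8% of all tested genes called.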
